A study of Mus musculus with 2 samples.

Results

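Elastic fibre and microfibril genes were examined in lung cells that store retinoids. The 10 genes were *Eln*, *Fbn1*, *Fbln1*, *Fbln2*, *Fbln5*, *Mfap2*, *Mfap4*, *Mfap5*, *Lox* and *Loxl1*, taken by symbol from the 32285 genes of the count matrices, and all 10 were present in both. The cells came from wild type C57BL/6 mice aged 3 months, which the study's methods give as male, and all belonged to 1 untreated condition. They were sorted as live UV-positive cells, that is by the emission of their own retinoids at 455 nm, and made into 2 single-cell libraries on different occasions, referred to as library 1 and library 2. The number of mice behind each library was not given in the sources used here, so that the spread between the libraries may be partly technical. A UV-positive sort enriches retinoid-storing fibroblasts and does not sample the lung's cells in proportion.

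Elastic fibres give the lung its recoil. They consist of a core of cross-linked elastin, the product of *Eln*, laid down on microfibrils whose main structural protein is fibrillin-1, the product of *Fbn1*. Microfibril-associated glycoproteins (*Mfap2*, *Mfap5*) and *Mfap4* bind to these microfibrils, fibulins (*Fbln1*, *Fbln2*, *Fbln5*) join elastin to its neighbours during assembly, and the copper enzymes lysyl oxidase (*Lox*) and lysyl oxidase-like 1 (*Loxl1*) cross-link the elastin. In the lung, fibroblasts, smooth muscle cells and some endothelial cells are known sources of these proteins.

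Barcodes needed 200 or more detected genes and no more than 10% of mitochondrial UMIs (unique molecular identifiers, 1 for each captured transcript molecule) to be kept. This left 9634 of 9669 barcodes in library 1 and 9988 of 10050 in library 2. The libraries held 48762735 and 93970185 UMIs, the median kept cell 4480.0 and 7577.5, and had 23 barcodes in common. A cell was placed in a class where the UMIs of 3 genes of that class summed to at least 3 and those of no other class did. The classes were stromal (*Col1a2*, *Tcf21*, *Pdgfra*), endothelial (*Cdh5*, *Pecam1*, *Egfl7*), epithelial (*Epcam*, *Cdh1*, *Lamp3*) and immune (*Ptprc*, *Laptm5*, *Cd52*). Stromal cells were divided by their UMIs of the proteoglycan gene *Dcn* into adventitial cells (at least 3), alveolar cells (0) and intermediate cells (1 to 2). Libraries 1 and 2 gave 1013 and 998 adventitial, 812 and 896 intermediate, and 5599 and 5542 alveolar cells. They differed far more in the other classes, with 67 and 396 endothelial, 934 and 106 epithelial, and 269 and 336 immune cells. The 402 and 1597 cells that passed several gates were left out, as possible doublets, and so were the 538 and 117 cells that passed none.

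Markers that the gates did not use were compared between adventitial and alveolar cells as a check of the names. Of 7 adventitial markers, 6 were higher in adventitial cells with an edgeR adjusted p under 0.05, led by *Pi16* (log2 fold change 7.89), *Cd248* (5.18) and *Ly6a* (4.81), and *Clec3b* (0.61) was not. Of 7 alveolar markers, 4 were lower, led by *Slc7a10* (-3.13) and *Fgfr4* (-2.24), whereas *Npnt* (-1.07), *Inmt* (-0.43) and *Limch1* (-0.34) did not pass. Both groups held UMIs of other cell types' markers. Summed over 4 epithelial markers, the level was 264.2 and 103.6 CPM (UMIs per 1000000 UMIs of the group) in adventitial cells of libraries 1 and 2, and 512.8 and 136.7 CPM in alveolar cells. Summed over 4 endothelial markers, it was 77.3 and 202.6 CPM against 144.2 and 378.2 CPM, and sums of immune and of mesothelial markers were at most 9.96 CPM. Summed over 6 smooth muscle and pericyte markers, it was 132.6 and 116.2 CPM against 81.9 and 102.4 CPM. Over 4 alveolar duct myofibroblast markers, the sum was 113.7 and 82.9 CPM against 16.5 and 33.9 CPM. The part of these cells in the differences below was not tested.

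Each level is the CPM of a gene in a group, taken from the sum of the UMIs of its cells, and is given per library. The reads mark transcript ends, and levels are compared here between groups for 1 gene, not between genes.

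**Figure D1:**
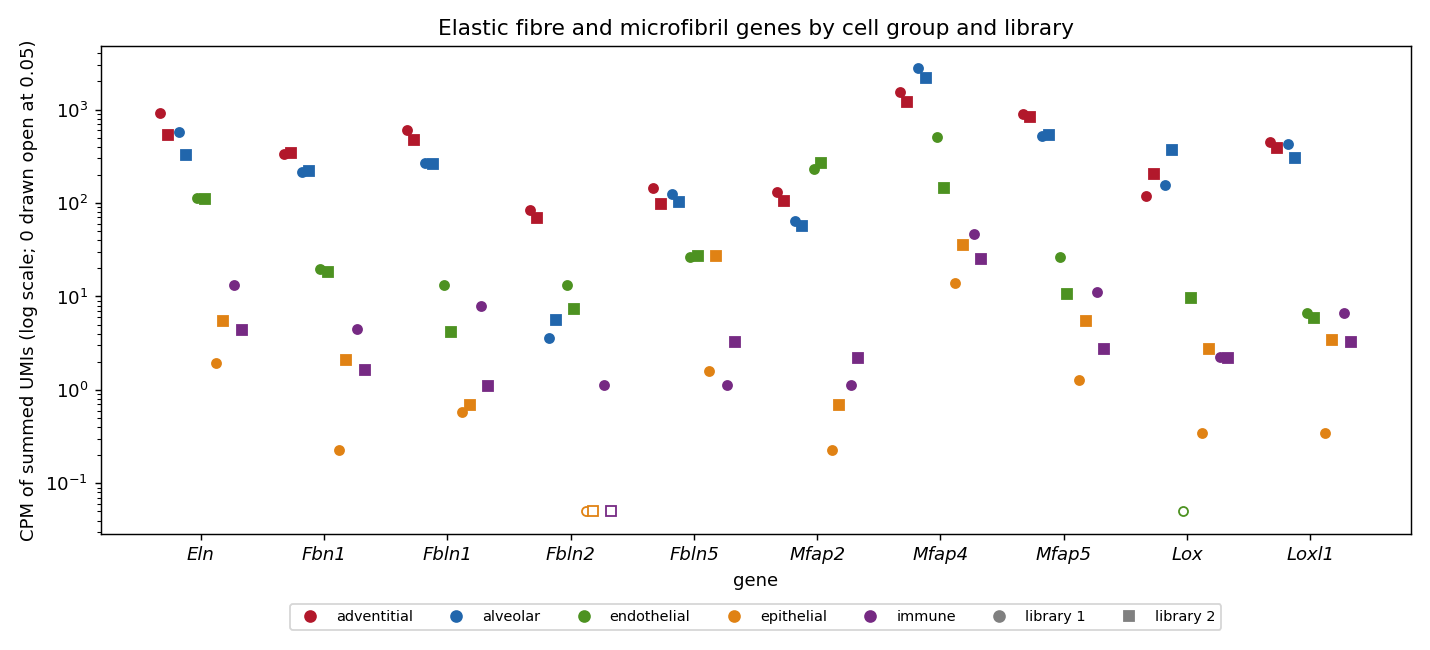
CPM of summed UMIs (log axis) of each of the 10 genes in adventitial, alveolar, endothelial, epithelial and immune cells; circles are library 1, squares library 2, and open marks at the bottom stand for a count of 0. For 9 genes both stromal groups lie above the other classes, apart from *Fbln2* in alveolar cells, and for *Mfap2* the endothelial cells are highest, at 230.2 and 268.4 CPM.

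The genes were first compared between all stromal cells and each other class, to see which cells of the sort carried them. In the quasi-likelihood test of edgeR on summed UMIs, with the library as a block, 9 of the 10 were higher in stromal than in endothelial cells and 1, *Mfap2*, was lower. Over all 11989 genes tested in that contrast, 17.2% were higher and 14.7% lower. All 10 were higher in stromal than in epithelial cells, where 23.7% of genes tested were higher and 21.5% lower, and all 10 were higher in stromal than in immune cells, where 26.6% were higher and 23.5% lower. The median log2 fold change of the 10 genes was 3.55 over endothelial, 7.53 over epithelial and 5.92 over immune cells, beside 0.11, 0.09 and 0.12 for all genes tested. With *Fbln2*, at 0 in the epithelial cells of both libraries, set at the level of 3 UMIs per library, the epithelial median was 7.36.

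*Eln*, the elastin gene, stood at 664.7 and 386.6 CPM in the stromal cells of libraries 1 and 2. It had 111.8 and 110.4 CPM in endothelial cells, 2.0 and 5.5 CPM in epithelial cells and 13.4 and 4.4 CPM in immune cells. Its log2 fold change over endothelial cells was 2.30 (SE 0.344, edgeR adjusted p = 5.45e-05). The groups did not overlap. Among the classes outside the stroma, endothelial cells were the highest for *Eln* in both libraries.

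*Fbn1*, which encodes fibrillin-1, gave 241.4 and 252.3 CPM in stromal cells, 19.7 and 18.3 CPM in endothelial cells and at most 4.5 CPM in epithelial and immune cells. Its stromal mean was 246.9 ± 7.70 CPM (SD, n = 2 libraries). *Mfap5*, for microfibril-associated glycoprotein 2, had stromal levels of 629.2 and 625.0 CPM, 627.1 ± 2.97 CPM (SD, n = 2), against 26.3 and 10.5 CPM in endothelial cells. *Mfap4* was at 2445.1 and 1903.4 CPM in stromal cells, and its endothelial levels, 513.1 and 145.2 CPM, differed widely between the libraries.

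The cross-linking enzymes had few UMIs outside the stroma. *Loxl1* had 437.4 and 326.3 CPM in stromal cells and at most 6.7 CPM in each other class of either library. *Lox* had 147.3 and 329.5 CPM in stromal cells, 0 and 9.6 CPM in endothelial cells and at most 2.8 CPM in epithelial and immune cells. The 0 in library 1 came from 67 cells, and a level of 3 UMIs there puts *Lox* at least 7.46-fold higher in stromal cells of that library.

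The fibulin genes differed in how low they fell outside the stroma. *Fbln1* was at 356.0 and 322.1 CPM in stromal and at 13.2 and 4.1 CPM in endothelial cells (log2 fold change 6.10, SE 0.438). *Fbln5* was at 124.8 and 102.6 CPM in stromal and at 26.3 and 27.0 CPM in endothelial cells (log2 fold change 2.68, SE 0.687, edgeR adjusted p = 0.00594). *Fbln2* was scarce over the stroma as a whole, at 19.6 and 20.5 CPM, and was at 13.2 and 7.3 CPM in endothelial cells, where library 1 held 2 UMIs and library 2 held 16. The edgeR adjusted p for *Fbln2* over endothelial cells was 0.0388 and rose to 0.0765 without the block, 0.202 in DESeq2, 0.0585 with gates of at least 2 UMIs and 0.233 with thinned cells. *Fbln5* also lost its call over endothelial cells without the block (adjusted p = 0.0720) and in DESeq2 (0.0750). Against 0 UMIs of *Fbln2* in epithelial cells, the level of 3 UMIs puts stromal cells at least 56.7-fold higher in library 1 and at least 9.91-fold higher in library 2.

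*Mfap2*, for microfibril-associated glycoprotein 1, went the other way. Its level was 230.2 and 268.4 CPM in endothelial cells of libraries 1 and 2, against 80.7 and 70.6 CPM in stromal cells, and at most 2.2 CPM in epithelial and immune cells. Endothelial cells were higher in both libraries, and the stromal over endothelial log2 fold change was -1.55 (SE 0.242, edgeR adjusted p = 7.98e-05). The call held under all 11 alternative settings with a test, between -1.70 and -1.27. The endothelial level exceeded the adventitial one too, which was 130.8 and 103.9 CPM. In endothelial cells 24 of 67 had a *Mfap2* UMI in library 1 (35.8%, exact Clopper-Pearson 95% interval 24.5 to 48.5%) and 249 of 396 in library 2 (62.9%, 57.9 to 67.7%). In epithelial cells, which serve as a background, the shares were 0.214% and 0.943%, although these cells were deeper (medians of 9350.5 and 13756.5 UMIs) than the endothelial cells (2090.0 and 4303.5). Of the adventitial cells, which were deeper than the endothelial cells, 50.9% and 62.5% had a *Mfap2* UMI. After each cell was thinned to 2000 UMIs the endothelial shares were 35.3% (12 of 34 cells) and 44.7% (155 of 347). The thinned shares were 23.3% and 17.2% of adventitial cells and 10.4% and 9.77% of alveolar cells.

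The endothelial UMIs were set beside those of 8 stromal genes (*Col1a1*, *Col3a1*, *Col6a1*, *Col6a2*, *Inmt*, *Limch1*, *Npnt*, *Spon1*). These 8 stood at a median of 7.72% of their stromal level in endothelial cells of library 1 (range 3.99 to 27.6%) and 3.78% in library 2 (1.70 to 13.1%). *Mfap2* was at 285.3% and 380.3%. *Fbln2* was at 67.2% and 35.7%, the first from 2 UMIs. *Eln* was at 16.8% and 28.5% and *Fbln5* at 21.1% and 26.3%, above the range of the 8 genes in library 2. In library 1 they were below *Limch1*, at 27.6%, and above the other 7, of which *Spon1* was highest at 14.6%. *Mfap4*, at 21.0% and 7.63%, was below *Limch1* and above the other 7 in both libraries.

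Subsets of the endothelial cells were examined after these values had been seen. Where *Car4* and *Ednrb*, markers of the capillary cells called aerocytes, summed to at least 2 UMIs, *Mfap2* stood at 418.5 CPM in library 1 (19 UMIs in 15 cells) and 317.6 CPM in library 2 (340 UMIs in 142 cells). In endothelial cells with no UMI of either gene it was at 140.9 CPM (13 UMIs in 45 cells) and 203.9 CPM (154 UMIs in 178 cells). With only endothelial cells that had no UMI of the stromal gate genes, *Mfap2* was at 264.7 and 288.6 CPM and *Mfap4* at 247.6 and 65.3 CPM.

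**Figure D2:**
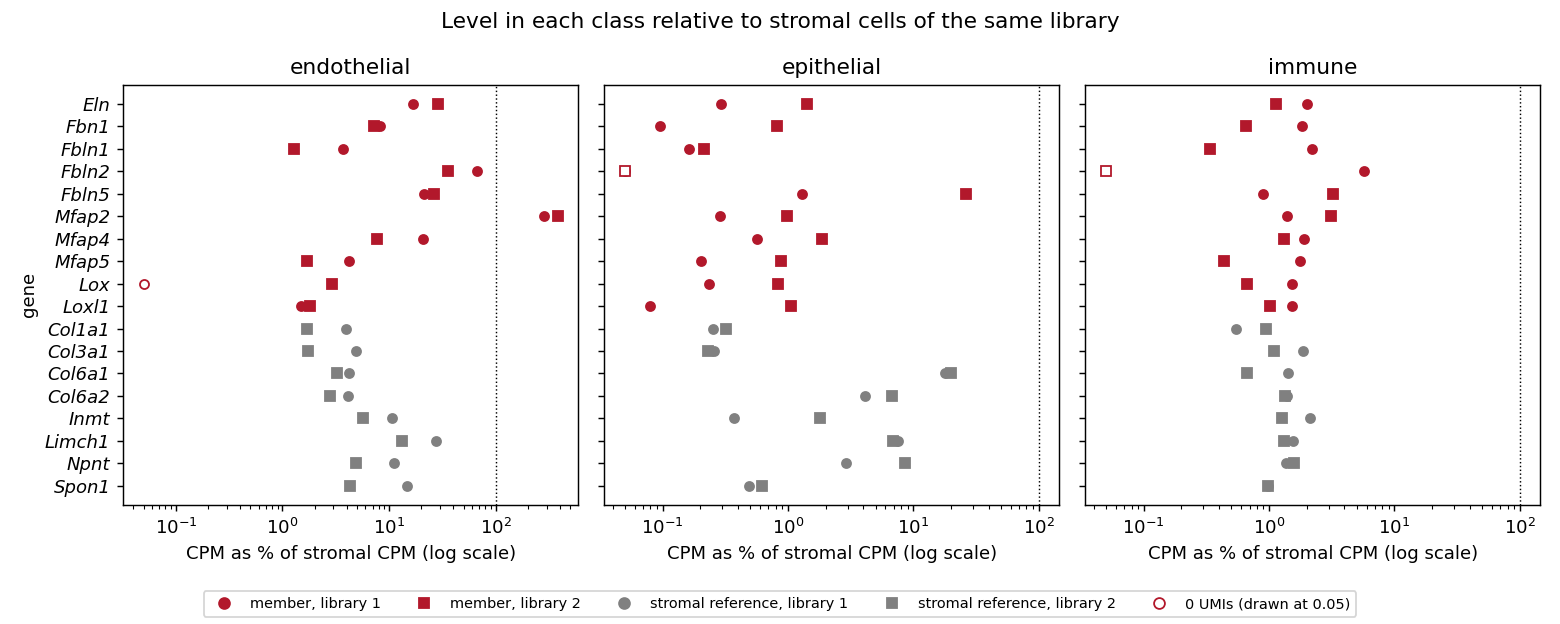
CPM of each gene in endothelial, epithelial and immune cells as a percentage of its stromal CPM in the same library (log axis), for the 10 genes (red) and 8 stromal reference genes (grey); circles are library 1, squares library 2, and the dotted line marks equal levels. *Mfap2* is the 1 gene to the right of that line, in endothelial cells, at 285.3% and 380.3%.

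Epithelial and immune cells held few UMIs of these genes. In epithelial cells, 9 of the 10 were between 0 and 1.9% of their stromal level in both libraries, while the reference genes had a median of 1.69% and 4.26%, with *Col6a1* highest at 18.0% and 19.9%. *Fbln5* was at 1.29% in library 1 and 26.2% in library 2. The UMIs of *Fbln5* were 39 in library 2, from 12 of 106 cells (11.3%, exact Clopper-Pearson 95% interval 5.99 to 18.9%). With 1 library on either side, this difference has no test. In immune cells all 10 were at most 5.7% of their stromal level, and *Fbln2* was at 1 UMI in library 1 and 0 in library 2.

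Adventitial and alveolar cells were then compared, to ask whether the genes divided the stroma. Of the 10, *Fbln2*, *Fbln1* and *Mfap2* were higher in adventitial cells and 0 were lower by the edgeR test, and 0 were lower in DESeq2. Over the 13399 genes tested, 5.39% were higher and 2.69% lower. At an unadjusted p under 0.05, *Eln*, *Fbn1* and *Mfap5* were higher too, and 2 (*Mfap4*, *Lox*) were lower, where 10.2% of all genes tested were higher and 8.14% lower. The median log2 fold change of the 10 genes was 0.71, beside -0.03 for all genes tested. In both libraries, 7 genes ran downward from adventitial through intermediate to alveolar cells, 2 (*Mfap4*, *Lox*) ran upward, and *Fbln5* had no order that both libraries shared. The share of all genes with such an order was not taken. Of the 10 genes, *Eln*, *Fbln1*, *Mfap5* and *Mfap4* were named by the study as marking adventitial or alveolar clusters of the same cells, so that their direction is not independent of it.

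**Figure D3:**
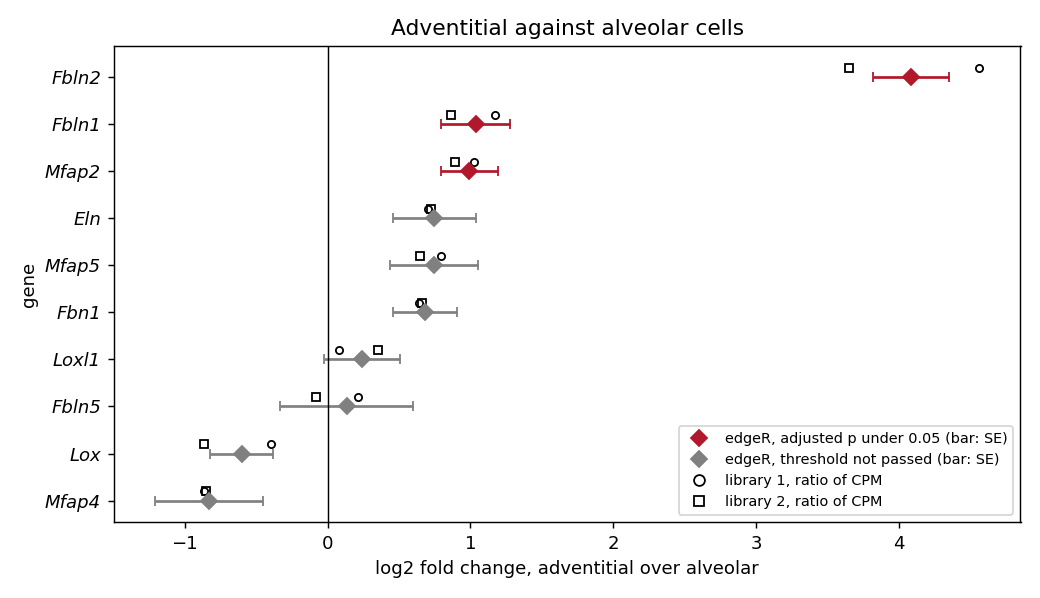
Log2 fold change of adventitial over alveolar cells for the 10 genes: diamonds are edgeR estimates with their SE (red where the adjusted p is under 0.05), and open circles and squares are the log2 ratio of CPM in libraries 1 and 2. *Fbln2* stands apart at 4.08, followed by *Fbln1* (1.04) and *Mfap2* (0.99), and the ratios of the libraries lie on the same side of 0 for all genes but *Fbln5*.

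*Fbln2* separated the groups most widely of the 10. Adventitial cells held 84.6 CPM in library 1 and 69.9 CPM in library 2, where alveolar cells held 3.6 and 5.6 CPM. The groups did not overlap, and the edgeR log2 fold change was 4.08 (SE 0.269, adjusted p = 6.2e-07). It kept its call under all 12 alternative settings with a test, between 4.07 and 4.24. Of adventitial cells 26.3% and 33.8% had a UMI of *Fbln2*, against 1.11% and 2.67% of alveolar cells. Adventitial cells were deeper (medians of 6040.0 and 10655.5 UMIs against 4022.0 and 6547.5), and in cells thinned to 2000 UMIs the shares were 12.1% and 10.0% against 0.476% and 0.763%. Most adventitial cells thus had no UMI of *Fbln2* at this depth.

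*Fbln1* was at 611.5 and 474.6 CPM in adventitial cells against 271.0 and 261.4 CPM in alveolar cells, and *Mfap2* at 130.8 and 103.9 CPM against 64.3 and 56.1 CPM. Neither pair of groups overlapped. The edgeR log2 fold changes were 1.04 (SE 0.242, adjusted p = 0.0133) for *Fbln1* and 0.99 (SE 0.198, adjusted p = 0.00442) for *Mfap2*. Both calls were lost without the block (adjusted p = 0.368 and 0.132) and in DESeq2 (0.369 and 0.129), while the size of the changes stayed between 1.02 and 1.18 and between 0.98 and 1.04.

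*Fbln1*, *Fbln2* and *Mfap2* were higher together in this contrast, and for that reason the bases before their start sites were read. RefSeq promoter sequences on GRCm38.p6 were matched by symbol for 5 of the 10 genes, *Fbn1*, *Fbln1*, *Fbln2*, *Fbln5* and *Mfap2*. For genes with several entries (*Fbln1*, *Fbln5*, *Mfap2*), the 1 with its start nearest to the annotated gene start was taken. The 250 bases before that RefSeq start of *Fbln1* (chr15:85205699-85205948, plus strand, 46.4% G or C) and of *Mfap2* (chr4:141010174-141010423, plus strand, 51.2% G or C) are shown 5′ to 3′, in lower case, with capitals at a motif match. The window of *Fbln2* (chr6:91212514-91212763) lies inside the first exon of the GENCODE annotation and is not shown, and the last 6 bases of the *Mfap2* window lie in an annotated exon.
Fbln1: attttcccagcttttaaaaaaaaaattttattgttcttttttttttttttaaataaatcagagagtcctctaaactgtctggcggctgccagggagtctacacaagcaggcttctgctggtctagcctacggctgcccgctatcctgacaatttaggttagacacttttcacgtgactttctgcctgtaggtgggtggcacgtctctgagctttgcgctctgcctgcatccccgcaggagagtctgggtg
Mfap2: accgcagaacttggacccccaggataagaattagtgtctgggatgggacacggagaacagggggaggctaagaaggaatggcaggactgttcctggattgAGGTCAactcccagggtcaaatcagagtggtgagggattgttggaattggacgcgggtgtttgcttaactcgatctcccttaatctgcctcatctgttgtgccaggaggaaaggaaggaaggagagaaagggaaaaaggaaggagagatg

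The motifs searched on both strands were the TATA element TATAAA, the GC box GGGCGG, the AP-1 element TGANTCA and the nuclear receptor element AGGTCA. Of 32851 promoter windows of the same length, 12.4%, 32.7%, 6.75% and 14.0% held them. The *Mfap2* window held 1 match, to AGGTCA, and that of *Fbln1* held none. The *Fbln2* window, inside an exon, held 1 match to GGGCGG. Those of *Fbn1* and *Fbln5*, which were not called, held 1 and 2 matches to GGGCGG. A match describes letters only.

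The elastin gene itself was higher in adventitial cells of each library without passing the test. *Eln* was at 929.8 and 537.3 CPM in adventitial cells and at 570.9 and 325.3 CPM in alveolar cells. The levels of library 1 exceeded those of library 2 in both groups, and the ranges overlapped across libraries, but within a library the ratio was 1.63 and 1.65. The edgeR log2 fold change was 0.75 (SE 0.290, adjusted p = 0.161). A UMI of *Eln* was found in 91.4% and 82.3% of adventitial cells, against 71.9% and 56.3% of alveolar cells, and in thinned cells in 72.4% and 46.8% against 55.8% and 31.7%.

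Among the microfibril genes, *Fbn1* was at 333.9 and 346.5 CPM in adventitial cells against 214.2 and 218.8 CPM in alveolar cells. *Mfap5* was at 895.7 and 836.7 CPM against 517.6 and 534.9 CPM. Neither pair of groups overlapped, yet the log2 fold changes of 0.68 and 0.74 did not pass (edgeR adjusted p = 0.0882 and 0.190). *Mfap4* had its higher level in alveolar cells, 2778.2 and 2161.9 CPM against 1525.5 and 1196.8 CPM, again without overlap, and the log2 fold change was -0.83 (SE 0.378, edgeR adjusted p = 0.253). A UMI of *Mfap4* was found in at least 92.9% of the cells of both groups in both libraries, and in thinned cells in 82.0% and 76.7% of adventitial against 87.6% and 85.5% of alveolar cells.

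Of the cross-linking enzymes, *Loxl1* was at 454.9 and 387.7 CPM in adventitial cells and 430.2 and 303.4 CPM in alveolar cells, with ranges that overlapped and a log2 fold change of 0.24 (SE 0.266). *Lox* was at 118.3 and 204.7 CPM in adventitial cells against 155.6 and 373.5 CPM in alveolar cells. Its adventitial to alveolar ratio was 0.760 in library 1 and 0.548 in library 2, and the log2 fold change of -0.60 (SE 0.221) had an edgeR adjusted p of 0.131. *Fbln5*, a fibulin that binds both elastin and cells, was nearly level, at 143.4 and 98.3 CPM against 123.8 and 103.8 CPM, and its log2 fold change was 0.13 (SE 0.465).

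How many of the 10 passed depended on the groups and genes that entered the fit. The 4 residual degrees of freedom of the fit come from 5 groups in 2 libraries. With only adventitial and alveolar sums in the fit, 6 genes were higher (*Eln*, *Fbn1* and *Mfap5* in addition) and 2 lower (*Mfap4* and *Lox*), at 1 residual degree of freedom among samples. In that fit 12% of 13122 genes were higher and 9.49% lower. Without the filter on low counts 6 were higher and 1, *Mfap4*, was lower, where 4.85% of 21243 genes were higher and 2.66% lower. With the sums of the other classes at 0, *Eln* was also higher (edgeR adjusted p = 0.0460) and *Mfap4* was lower. With cells thinned to 2000 UMIs and gated again, *Mfap5* was also higher (0.0437). That setting regrouped the cells, giving 612 and 461 adventitial and 5084 and 6046 alveolar cells in libraries 1 and 2.

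*Dcn* counts grade the stroma more finely than 2 groups do. From 0 UMIs of *Dcn* through 1 to 2, 3 to 5, 6 to 10 and over 10, *Fbln2* went from 3.6 through 10.1, 29.8 and 50.8 to 115.2 CPM in library 1. In library 2 it went from 5.6 through 21.5, 54.9 and 49.7 to 81.8 CPM. The limit of the adventitial group lies between the second and the third of these bins. *Mfap4* ended at 1509.8 CPM from 2778.2 in library 1 and at 1103.3 CPM from 2161.9 in library 2. *Lox* ended at 104.9 CPM from 155.6 in library 1 and at 190.5 CPM from 373.5 in library 2.

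Several of the genes, *Fbln1* and *Mfap5* among them, already differed at the lowest counts. From 0 to 1 to 2 *Dcn* UMIs, *Eln* went from 570.9 and 325.3 to 778.6 and 463.4 CPM. *Mfap2* went from 64.3 and 56.1 to 95.4 and 91.8 CPM, and *Mfap4* fell from 2778.2 and 2161.9 to 2008.3 and 1680.2 CPM. *Fbln1* stood at 271.0 and 261.4 CPM with 0 *Dcn* UMIs and at 437.1 and 393.6 CPM with 1 to 2, and reached 635.7 and 485.3 CPM over 10. *Mfap5* stood at 517.6 and 534.9 CPM, then at 836.2 and 751.2 CPM, and at 869.3 and 813.3 CPM over 10. *Eln* ended at 975.8 and 545.3 CPM. *Loxl1* stayed within 430.2 to 460.4 CPM over the 5 bins in library 1, and in library 2 it went from 303.4 CPM through 347.8, 378.1 and 384.3 to 392.7 CPM. *Fbln5* stayed within 86.7 to 103.8 CPM in library 2 and moved between 103.5 and 159.1 CPM, in no steady order, in library 1. Depth went with the bins, median UMIs per cell being higher in each, from 4022.0 to 6313.5 and from 6547.5 to 10981.0. In cells thinned to 2000 UMIs before binning, *Fbln2* was at 4.3 CPM in the lowest bin and 144.0 CPM in the highest in library 1, and *Mfap4* at 2807.0 and 1366.8 CPM. In the same thinned cells *Fbln5* was highest in the last bin of both libraries. It went from 123.5 through 112.4 (1 to 2 UMIs) to 195.7 CPM in library 1. In library 2 it went from 98.5 through 92.3 to 156.0 CPM, the last from 34 UMIs.

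**Figure D4:**
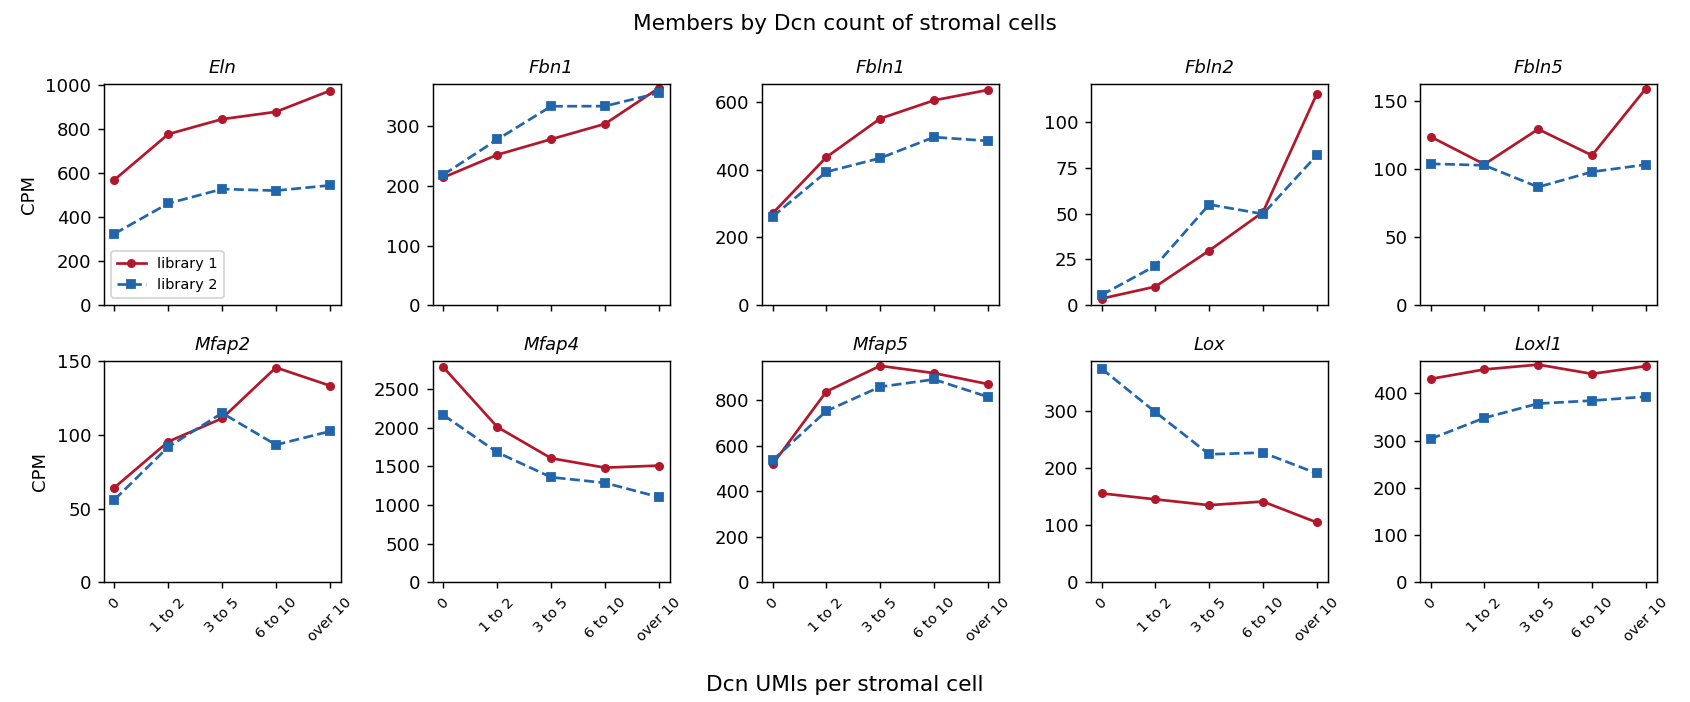
CPM of each of the 10 genes in stromal cells binned by *Dcn* UMIs per cell (0, 1 to 2, 3 to 5, 6 to 10, over 10); red circles are library 1 and blue squares library 2, and each axis starts at 0. *Fbln2* goes from 3.6 and 5.6 CPM to 115.2 and 81.8 CPM, *Mfap4* and *Lox* are lower in the last bin than in the first, and *Fbln5* shows no common course.

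Within the adventitial group, cells with a UMI of *Pi16*, a marker of adventitial fibroblasts, were set beside those without (226 and 787 cells in library 1, 79 and 919 in library 2). *Fbln2* was at 187.8 CPM in the *Pi16* cells of library 1 and 159.1 CPM in those of library 2, against 54.7 and 61.4 CPM in the others. *Fbln5*, level between adventitial and alveolar cells, was at 220.8 and 255.6 CPM against 120.9 and 83.3 CPM. *Fbn1* was at 428.3 and 478.3 CPM against 306.5 and 334.0 CPM. *Fbln1* was at 826.3 and 663.3 CPM against 549.2 and 456.6 CPM, and *Loxl1* at 464.9 and 475.3 CPM against 452.0 and 379.4 CPM. *Mfap4*, which had its higher level in alveolar cells, was at 1869.3 and 1499.6 CPM in the *Pi16* cells against 1425.8 and 1168.0 CPM in the other adventitial cells. Each of these genes was higher in the *Pi16* cells within both libraries, and so was *Eln*, at 1117.5 and 634.4 CPM against 875.4 and 528.0 CPM. *Lox* was lower in both, at 103.4 and 187.9 CPM against 122.6 and 206.3 CPM. No direction was shared by the libraries for *Mfap5* (857.3 and 911.9 CPM against 906.8 and 829.6 CPM) or *Mfap2* (122.4 and 122.3 CPM against 133.2 and 102.1 CPM). *Pi16* cells were slightly deeper (medians of 6351.5 and 11166.0 UMIs against 5967.0 and 10575.0). They also held more *Hhip* (132.9 and 135.2 against 47.5 and 44.4 CPM) and *Aspn* (140.0 and 84.5 against 16.7 and 19.3 CPM). The smooth muscle gene *Acta2* was higher too (128.0 and 275.5 against 73.6 and 71.8 CPM), while *Myh11* had at most 1 UMI in each subset. The part of these genes in the differences above was not tested. No test was run on these subsets, and the share of all genes that differed in this way was not taken.

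Within the alveolar group, 299 and 710 cells had a UMI of *Hhip* or *Aspn*, genes of alveolar duct myofibroblasts, and 5300 and 4832 had none. *Mfap5* was at 738.9 and 721.4 CPM in the former against 502.1 and 499.8 CPM, *Fbln1* at 352.6 and 363.6 CPM against 265.2 and 242.2 CPM, and *Mfap2* at 103.7 and 82.1 CPM against 61.5 and 51.2 CPM. *Fbn1* was at 274.0 and 264.8 CPM against 210.0 and 210.1 CPM, and *Fbln2* at 7.9 and 9.9 CPM, from 12 and 61 UMIs, against 3.3 and 4.7 CPM. Each of these genes was at a higher level in the former cells within both libraries, and the share of all genes that were so was not taken. In library 1 the former cells were deeper (median of 4938.0 against 3983.0 UMIs). In library 2 their median was also higher, at 7843.0 UMIs beside 6547.5 for all alveolar cells. Among smooth muscle genes, *Acta2* was also at a higher level within each library (42.9 and 257.6 CPM against 30.2 and 64.0 CPM). *Myh11* was at 42.2 against 8.6 CPM in library 2, but in library 1 it rested on 1 and 3 UMIs (0.66 and 0.14 CPM). *Tagln* went the other way in library 1, at 373.7 against 638.5 CPM. The part of these smooth muscle genes in the differences above was not tested. *Eln*, at 683.4 and 431.6 CPM against 563.0 and 305.3 CPM, was higher within each library. *Mfap4* went the other way, at 2375.2 and 1946.1 CPM against 2806.4 and 2202.5 CPM. Cells that passed none of the 4 class gates but held at least 3 UMIs of *Myh11*, *Cspg4*, *Notch3* and *Kcnj8* together numbered 0 in library 1 and 16 in library 2. The 16 cells held *Acta2* at 8008.0 CPM and *Myh11* at 1443.8 CPM but also *Hhip* at 1867.3 CPM and *Dcn* at 1193.5 CPM, and they are given no cell type name. In them *Eln* was at 616.0 CPM from 32 UMIs (exact Poisson 95% interval 421.3 to 869.6, counting error only) and *Mfap4* was at 19.3 CPM from 1 UMI.

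Stromal cells held several of these transcripts at once. In cells thinned to 2000 UMIs, an adventitial cell held UMIs of 4.79 of the 10 genes on average in library 1 and 4.26 in library 2, and an alveolar cell of 3.73 and 3.52. Endothelial cells held 1.09 and 0.937, immune cells 0.201 and 0.112, and epithelial cells 0.0377 and 0.160. Of alveolar cells 0.417% and 0.872% held none of the 10.

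Pairs of genes were then examined for being found in the same thinned cells, as a description with cells of 1 library as the points. Of 45 pairs, 27 had the 1 gene in a larger share of the alveolar cells with the other than of those without, in both libraries, and 9 in a smaller share. Only 7 of the 45 pairs had a share larger by over 5 percentage points in both libraries, and the examples of a larger share that follow are among these. That count took the gene later in the alphabet, in cells with and without the earlier one. Pairs with a share smaller by as much were not counted. Pairs of other genes were not examined, so that these counts have no background to be read against. Alveolar cells with a *Fbln1* UMI had a *Mfap5* UMI in 56.9% and 62.7% of cases, against 43.7% and 48.0% of those without. *Mfap5* was found in 53.4% and 61.2% of alveolar cells with an *Eln* UMI against 41.9% and 48.9% of the others. *Lox* was among the 9, being found in 24.7% and 44.0% of alveolar cells with a *Mfap5* UMI and in 25.3% and 48.9% of those without.

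The libraries themselves differed in *Lox* and *Eln*. *Lox* was 2.40 times as high in library 2 as in library 1 in alveolar cells, and 1.73 times as high in adventitial cells. *Eln* ran the other way, at 0.570 and 0.578 times its level in library 1. Among 3065 genes that averaged 50 CPM or more in alveolar cells, the 10th and 90th percentiles of that ratio were 0.689 and 1.62, so that both genes lay outside that span, and in adventitial cells it was 0.690 to 1.68. *Fbln5* in adventitial cells, at 0.685, was just below it. *Fbn1*, *Fbln1* and *Mfap5* stayed between 0.776 and 1.04. The libraries differed in occasion, depth and the other cells they held, which cannot be told apart from *Lox* or *Eln* with 1 library each, and the difference has no test.

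A further 20 genes of the elastic fibre and microfibril were chosen as a list: relatives of the fibrillins and fibulins, latent TGF-beta binding proteins, emilins, other lysyl oxidase-like enzymes, ADAMTS proteins and processing enzymes. Of these, 19 could be tested between adventitial and alveolar cells, 5 were higher and 1 was lower in edgeR. Over all genes tested there, 5.39% were higher and 2.69% lower. *Fbln7*, another fibulin, was at 9.01 and 8.98 CPM in adventitial against 1.12 and 0.645 CPM in alveolar cells (log2 fold change 3.42). *Ltbp2*, a microfibril-bound latent TGF-beta binding protein, was at 56.8 and 31.9 CPM against 8.3 and 14.5 CPM (1.97). *Bmp1*, a protease that activates lysyl oxidase, was at 28.0 and 29.9 CPM against 11.96 and 14.2 CPM (1.18).

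*Loxl3* and the scarce *Emilin2* were the others that were higher, with log2 fold changes of 0.94 and 2.27. *Adamts10*, a microfibril-binding protein, was lower at 78.6 and 86.7 CPM in adventitial against 146.7 and 125.1 CPM in alveolar cells (log2 fold change -0.69, edgeR adjusted p = 0.0373). The median of the 19 was 0.41. Between stromal cells and the other classes 17 of the 20 were tested. Of these, 12 were higher than in endothelial, 14 than in epithelial and 15 than in immune cells, with 1 lower each time. The lower ones were *Mfap3* (log2 fold change -1.09 over endothelial), *Bmp1* (-3.84 over epithelial) and *Emilin2* (-7.50 over immune cells, where it was at 127.2 and 62.6 CPM). Over all genes tested in these contrasts, in the same order, 17.2%, 23.7% and 26.6% were higher and 14.7%, 21.5% and 23.5% lower.

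The genes whose levels ran most like those of *Eln* were sought by Pearson's r of log2(CPM + 1) over the 10 values of 5 groups in 2 libraries, among 13398 other genes. The first 5 were *Dpysl3* (r = 0.991), *Sparcl1* (0.989), *Pdia3* (0.989), *Bgn* (0.988) and *Lix1l* (0.988). Of the 9 other elastic fibre genes, *Fbn1* came nearest (r = 0.978, rank 18), followed by *Mfap4* (0.968, rank 55), and *Lox* was farthest (0.814, rank 1409). The 10 points share libraries and total depth, and the high values rest on the gap between stromal and other cells.

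On GRCm38, the annotation places *Eln* at chr5:134702593-134747323, *Fbn1* at chr2:125300594-125507993, *Fbln1* at chr15:85205949-85286535 and *Fbln2* at chr6:91212455-91272540. *Fbln5* lies at chr12:101746565-101819055, *Mfap2* at chr4:141010418-141015984, *Mfap4* at chr11:61485431-61488900, *Mfap5* at chr6:122505845-122529290 and *Loxl1* at chr9:58287738-58313186. These 9 genes are dispersed, with *Fbln2* and *Mfap5* on the same chromosome but far apart, the position of *Lox* is not given here, and counts are for whole genes.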

How the data were processed

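UV-positive lung cells of 2 single-cell libraries were analysed. The authors prepared them with Chromium Single Cell 3' v3.1 chemistry and deposited raw UMI counts per gene and barcode, made, per the submitters' processing notes, with Cell Ranger 5.0.1 on mm10, with no normalization. The deposited counts were whole numbers. Gene and barcode lists were used as names.

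UMIs were summed per library and class and tested in edgeR 4.0.16 (R 4.3.3; TMM, default low-count filter, quasi-likelihood test, two-sided, library as a block, Benjamini-Hochberg over all genes tested, threshold 0.05). Adventitial and alveolar sums were fitted with endothelial, epithelial and immune sums, and stromal sums with the same 3 classes. The study tested clusters over cells, which are not replicates. The libraries pair the groups, since each group was a part of the same library. DESeq2 1.42.0, no block, other normalization, filters and gates were alternatives. CPM were computed without the TMM factor. Cells were thinned to 2000 UMIs with a fixed seed, shallower ones being left out. Shares in thinned cells kept the groups of full depth, whereas the tests on thinned cells applied the gates and the *Dcn* limits again to the thinned counts. Shares carry exact Clopper-Pearson 95% intervals and counts of 0 the level of 3 UMIs, both for counting error only. The test was checked on simulated counts. No doublet caller was run, and cells passing several gates were left out.

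The genes studied, the 20 further genes and the markers were chosen with earlier results of these data known. Named genes were the members, the further genes that passed, the 5 most like *Eln*, and markers.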

Additional observations from a re-analysis of the deposited data

Results flagged for a closer look

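Transcripts of the 10 genes were also found in cells outside the compared groups. Cells that passed several gates held 9670 UMIs of the 10 genes in library 1 and 61077 in library 2, and cells that passed no gate held 3377 and 298, which was above the level that a count of 0 allows. The former included 75 cells in library 1 and 895 in library 2 that passed the stromal and endothelial gates. In these 895 cells of library 2, at a median of 15102.0 UMIs, *Mfap2* stood at 177.3 CPM, *Eln* at 175.2 CPM and *Mfap4* at 1166.8 CPM, values between those of stromal and endothelial cells. In the 75 cells of library 1, *Mfap2* stood at 75.2 CPM, *Eln* at 254.8 CPM and *Mfap4* at 2251.2 CPM. There *Eln* and *Mfap4* lay between the stromal and endothelial levels, but *Mfap2* lay below both, at 80.7 and 230.2 CPM. The 538 cells of library 1 that passed no gate had a median of 1082.0 UMIs and 2760.8 CPM of *Mfap4*, near its alveolar level.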

How the results depend on the processing

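No alternative reversed the direction of a called gene. Between adventitial and alveolar cells, 1083 genes were called, against 230 without the replicate block, 592 in DESeq2 and 2821 with only these groups in the fit. Of the 10 genes, 3 were called higher, against 1 without the replicate block and 1 in DESeq2 (*Fbln2*). The count was 6 without the low-count filter and 6 with only these groups. It was 4 where the sums of the other classes had to be 0 (*Eln* added) and 4 with cells thinned and gated again (*Mfap5* added). By edgeR and by DESeq2 0 were called lower, against 1 without that filter (*Mfap4*), 1 where the sums of the other classes had to be 0 (*Mfap4*) and 2 with only these groups. At an unadjusted p under 0.05, which 2463 of 13399 genes met, *Eln*, *Fbn1* and *Mfap5* were higher too and *Mfap4* and *Lox* were lower. Over epithelial cells, 5419 genes were called and 3455 with cells thinned to 2000 UMIs and gated again.

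The pairing by library changed no other count by over 1.5 times. Leaving out a library left no residual degrees of freedom and gave values with no test. *Fbln5* then changed sign between adventitial and alveolar cells, at -0.08 from library 2 alone and 0.21 from library 1 alone. *Fbln2* over endothelial cells was 0.57 from library 1 alone, against 1.45. With 67 endothelial cells in library 1, 1 UMI there was worth 6.58 CPM, and 2 libraries give an SD of little precision.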
